A study of Homo sapiens with 15 samples.

Results

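The subject is a cluster of 10 zinc finger genes on chromosome 7q11.21: ZNF727, ZNF735, ZNF679, ZNF736, ZNF680, ZNF107, ZNF138, ZNF273, ZNF117 and ZNF92. They are 10 of 509 protein-coding genes with a ZNF symbol and of 20037 protein-coding genes in the RefSeq table used (GRCh38). They were chosen because peaks of the chromatin protein MPP8 fall in the cluster in both available peak lists, so the counts of peaks at the members are descriptions and carry no test. A member counted as having a peak when a peak overlapped its body or lay within 5 kb of it. By that rule 5 members had a peak of either list and 5 had none, and 2.07% of all protein-coding genes had one.

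MPP8 was mapped by ChIP-seq in K-562, a human line established from a chronic myeloid leukaemia. One library came from cells with a CRISPR/Cas9 knockout of TASOR (TASOR KO) and 1 from cells with a knockout of TASOR2 (TASOR2 KO), each a clonal population grown from a sorted single cell, and both were precipitated with an MPP8 antibody. No other alteration is given for either genotype. The study also used an empty lentiviral vector as a control, and the labels do not say whether these cells carried it. The other 13 samples were not analysed here. They include cells with both paralogs and cells without MPP8, so MPP8 occupancy in the former and the antibody background were not examined here. With 1 library and 1 clonal population per genotype there is no replicate error. Differences are between these 2 lists, not between genotypes.

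MPP8 binds histone H3 methylated at lysine 9 through its chromodomain and belongs to the human silencing hub (HUSH), which TASOR holds together and which represses transposable elements such as LINE-1. TASOR2 is a paralog of TASOR. Zinc finger genes with a KRAB domain arose by tandem duplication, so that neighbours in a cluster often have similar sequences, and their products bind DNA and recruit silencing factors. In such genes the zinc fingers are usually encoded by a single long exon at the 3′ end, and chromatin there often carries H3 lysine 9 methylation.

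The promoter windows of the members are shown first because some of them resemble each other and only 1 of them lay under a peak. Each window runs from 250 bases before to 50 bases after a gene start listed by RefSeq (GRCh38.p14, printed 5′ to 3′ on the strand of the gene). All 10 members matched the table, ZNF273 with 2 starts, giving 11 windows. The windows printed are that of ZNF107, which a TASOR KO peak covered (chr7:64665883-64666182, plus strand), and for comparison those of ZNF680 (chr7:64563022-64563321, minus strand), the downstream start of ZNF273 (chr7:64903023-64903322, plus strand), ZNF92 (chr7:65373605-65373904, plus strand) and ZNF736 (chr7:64313711-64314010, plus strand), which no peak touched. Capitals mark CCAATCAG, which contains the CCAAT box of many promoters and is the longest run of letters shared by 7 members, and TGGCGGGGCCTTTGTCTC, the longest shared by 5. The 5 windows printed are those that hold the longer run.
ZNF107: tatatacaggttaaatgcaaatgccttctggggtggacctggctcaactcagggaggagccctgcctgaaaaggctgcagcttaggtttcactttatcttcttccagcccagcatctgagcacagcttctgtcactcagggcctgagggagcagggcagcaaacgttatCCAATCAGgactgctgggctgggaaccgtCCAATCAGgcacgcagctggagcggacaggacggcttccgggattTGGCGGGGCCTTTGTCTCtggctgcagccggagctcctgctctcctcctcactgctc
ZNF680: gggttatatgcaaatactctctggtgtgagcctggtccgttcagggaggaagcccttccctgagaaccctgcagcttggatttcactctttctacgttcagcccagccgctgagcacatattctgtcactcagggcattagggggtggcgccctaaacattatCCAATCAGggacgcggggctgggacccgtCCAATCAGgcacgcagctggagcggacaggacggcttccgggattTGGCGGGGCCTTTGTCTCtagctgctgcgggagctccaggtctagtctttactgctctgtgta
ZNF273 downstream start: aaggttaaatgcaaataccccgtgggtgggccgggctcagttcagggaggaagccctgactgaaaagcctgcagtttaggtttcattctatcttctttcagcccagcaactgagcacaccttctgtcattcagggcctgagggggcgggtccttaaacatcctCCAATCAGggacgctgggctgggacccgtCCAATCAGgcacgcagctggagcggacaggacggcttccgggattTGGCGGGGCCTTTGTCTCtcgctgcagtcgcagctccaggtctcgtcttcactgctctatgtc
ZNF92: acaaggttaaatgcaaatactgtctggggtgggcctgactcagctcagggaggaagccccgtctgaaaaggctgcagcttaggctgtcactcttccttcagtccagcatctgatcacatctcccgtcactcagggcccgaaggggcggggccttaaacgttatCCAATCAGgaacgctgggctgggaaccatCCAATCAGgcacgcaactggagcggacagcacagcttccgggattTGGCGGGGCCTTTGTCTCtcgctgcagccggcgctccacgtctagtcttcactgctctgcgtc
ZNF736: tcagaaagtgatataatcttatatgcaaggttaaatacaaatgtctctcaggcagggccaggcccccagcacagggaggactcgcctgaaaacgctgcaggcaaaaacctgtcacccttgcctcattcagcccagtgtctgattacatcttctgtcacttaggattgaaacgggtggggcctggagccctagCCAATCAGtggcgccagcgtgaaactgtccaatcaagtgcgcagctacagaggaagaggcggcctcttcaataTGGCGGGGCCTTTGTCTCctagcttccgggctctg

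The windows of ZNF107, ZNF680, ZNF138, ZNF92 and the downstream start of ZNF273 formed a set of 5 with 79.0% to 84.8% identical positions over their 10 pairs. ZNF727 and ZNF736 formed a separate pair with 84.1% identity. The other 44 pairs of windows had 46.7% to 61.8%. A run of 68 bases was the same letter for letter in ZNF107, ZNF680 and the downstream start of ZNF273, and included the downstream CCAATCAG and the TGGCGGGGCCTTTGTCTC of each. CCAATCAG, searched on both strands, was in 7 of the 11 windows, against 82 of 545 windows of the other ZNF genes (15.0%) and 1393 of all 35116 windows (3.97%). TGGCGGGGCCTTTGTCTC, searched likewise, was in 5 of the 11, against 10 of 545 (1.83%) and 16 of 35116 (0.0456%). The 2 runs do not overlap in the windows printed, and both were picked because members share them.

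Windows with like letters differed in whether a peak lay over them. Only the ZNF107 window lay under a TASOR KO peak. The window most like it, the downstream start of ZNF273 at 83.8% identity, was 19.1 kb from the nearest TASOR KO peak. The windows of ZNF92 (82.5%), ZNF138 (81.2%) and ZNF680 (79.0%) were 135, 126 and 102 kb from their nearest. Among the other ZNF genes, 2 of the 82 windows with CCAATCAG lay under a TASOR KO peak (2.44%), against 37 of the 463 without it (7.99%). With CCAAT, which CCAATCAG contains, 18 of the 238 windows did (7.56%), against 21 of the 307 without it (6.84%). Of the 10 with TGGCGGGGCCTTTGTCTC, 0 lay under a TASOR KO peak, against 39 of the 535 without it (7.29%). As few as 10 windows cannot tell these shares apart, and no conclusion is drawn from them. How well short reads can be placed within the shared runs was not tested.

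**Figure D1:**
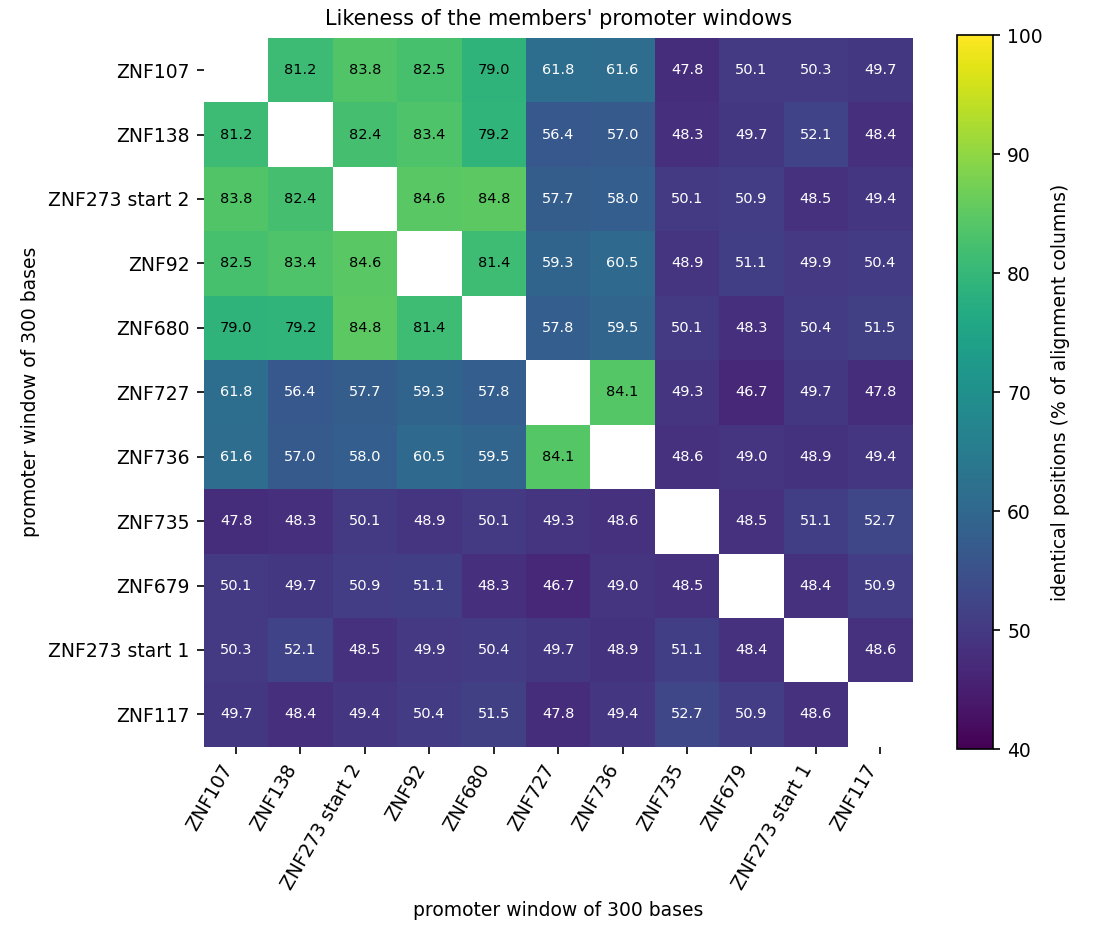
Percent of identical alignment columns (colour and number) between the 300-base promoter windows of the members, in rows and columns. The set of 5 at the upper left has 79.0% to 84.8% identity and the pair ZNF727 and ZNF736 has 84.1%, while the other pairs lie between 46.7% and 61.8%.

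The members lie between 64045434 and 65401136 of chromosome 7, an interval of 1.36 Mb. In order along the chromosome they are ZNF727, ZNF735, ZNF679, ZNF736, ZNF680, ZNF107, ZNF138, ZNF273, ZNF117 and ZNF92. ZNF680 and ZNF117 are transcribed from the minus strand and the others from the plus strand. The 5 members without a peak are the 5 of lowest coordinate and the 5 with a peak are the 5 of highest coordinate. The peaks at members begin at ZNF107 and end just past ZNF92.

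TASOR KO cells had 2 peaks at 2 members, ZNF107 and ZNF273. A peak by the same rule was found at 1.23% of all protein-coding genes. TASOR2 KO cells had 6 peaks at 5 members, ZNF107, ZNF138, ZNF273, ZNF117 and ZNF92, where 1.03% of all protein-coding genes had one. ZNF107 and ZNF273 had peaks of both lists, which 0.185% of protein-coding genes did. Since the members were chosen on these peaks, nothing is read from their counts against those shares.

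Zinc finger genes elsewhere are the closest set to compare. Of the 246 ZNF genes on chromosome 19, 53 had a TASOR KO peak (21.5%, exact binomial 95% interval 16.6 to 27.2) and 59 a TASOR2 KO peak (24.0%, 18.8 to 29.8). Of the 253 ZNF genes on other chromosomes, members left out, 13 (5.14%, 2.76 to 8.63) and 20 (7.91%, 4.90 to 11.9) had one. Peaks of both lists were found at 20 of the 246 (8.13%, 5.04 to 12.3) and at 6 of the 253 (2.37%, 0.875 to 5.09). The intervals cover counting error only and treat neighbouring genes as independent, which genes that share a peak are not.

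**Figure D2:**
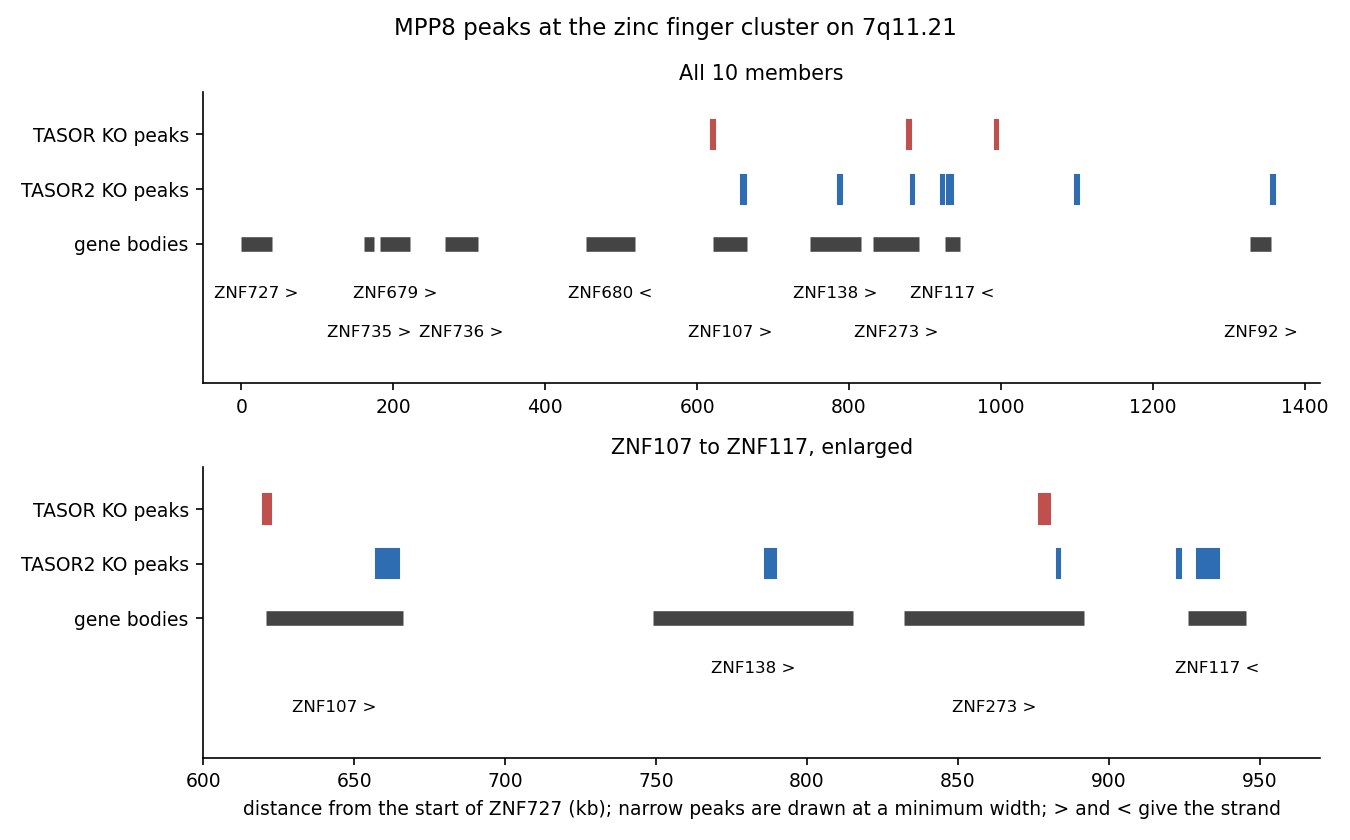
Peaks of the TASOR KO list (red) and the TASOR2 KO list (blue) above the bodies of the 10 members (grey), by distance from the start of ZNF727 in kb, for the whole cluster and enlarged for ZNF107 to ZNF117. The 5 members on the left have no peak within 5 kb, and the TASOR KO peak at ZNF107 sits at its start while the TASOR2 KO peak sits near its end.

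ZNF107 (gene ID 51427, 64666133 to 64711577, plus strand, 45.4 kb) had a peak of each list at opposite ends. The TASOR KO peak, chr7:64665078-64667779, was 2702 bp wide and covered the listed start and the promoter window printed above, with its centre 0.296 kb after the start. Its fold enrichment, as deposited, was 3.96 and its −log10 q was 1.78 (q = 0.0166, rank 103 of 427). The TASOR2 KO peak, chr7:64702608-64710090, was 7483 bp wide, lay wholly inside the gene and was centred 88.5% of the way along it, 5.23 kb before the end. Its fold was 4.09 and its −log10 q was 1.28 (q = 0.0529, rank 85 of 264). The 2 peaks were 34.8 kb apart. The fold, p and q of each peak are the authors' values, and ranks of the 2 lists are not comparable in size, since the TASOR KO list keeps peaks up to a q of 0.460 and the TASOR2 KO list up to 0.258.

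ZNF273 (gene ID 10793, 64877603 to 64937316, plus strand, 59.7 kb) had peaks of both lists in its later part. The TASOR KO peak, chr7:64922412-64926004, was 3593 bp wide and centred 78.0% along the gene. It was weak, with a fold of 2.98 and a −log10 q of 0.438 (q = 0.365, rank 339 of 427). The TASOR2 KO peak, chr7:64928411-64929359, was 949 bp wide and centred 85.9% along the gene, with a fold of 3.91 and a −log10 q of 1.10 (q = 0.0800, rank 125 of 264). Only 2407 bp separated the 2 peaks, and neither touched a start of the gene: the downstream one was 19.1 kb from the TASOR KO and 25.1 kb from the TASOR2 KO peak.

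ZNF138, ZNF117 and ZNF92 had TASOR2 KO peaks only. This was the usual case: of the 206 protein-coding genes with a TASOR2 KO peak, 37 had peaks of both lists. In ZNF138 (gene ID 7697, 64794428 to 64860823, plus strand, 66.4 kb, the longest member) the peak lay at chr7:64831567-64835241, 58.7% along the gene. This was the strongest peak at any member in its list, with a fold of 4.38 and a −log10 q of 1.81 (q = 0.0156, rank 33 of 264). The nearest TASOR KO peak was 61.6 kb from the gene.

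ZNF117 (gene ID 51351, 64971772 to 64991036, minus strand, 19.3 kb) had 2 TASOR2 KO peaks. The wider, chr7:64974521-64982048, was 7528 bp long, covered 39.1% of the gene body and was centred 66.2% along it, with a fold of 4.29 and a −log10 q of 1.55 (q = 0.0280, rank 54). The narrower, chr7:64968394-64968970, was 577 bp long and lay 2.80 kb past the 3′ end, with a fold of 4.28 and a −log10 q of 1.46 (q = 0.0347, rank 64). The wider peak also lies in ERV3-1-ZNF117, an annotated readthrough transcript of ZNF117 and ERV3-1, so it cannot be assigned to 1 of these genes. ERV3-1 itself, a gene of endogenous retroviral origin, had no peak within 5 kb, and its nearest TASOR2 KO peak was 8.31 kb away. The nearest TASOR KO peak to ZNF117 was 45.8 kb away, the one inside ZNF273.

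ZNF92 (gene ID 168374, 65373855 to 65401136, plus strand, 27.3 kb) had its TASOR2 KO peak outside the annotated body. The peak, chr7:65402020-65404702, began 884 bp past the 3′ end, was 2683 bp wide and had a fold of 4.17 and a −log10 q of 1.48 (q = 0.0334, rank 63). ZNF92 thus counts through the 5 kb window and not through its body. By the body alone 4 members had a TASOR2 KO peak, as did 0.858% of protein-coding genes, and 2 a TASOR KO peak, as did 1.08%. The nearest TASOR KO peak to ZNF92 was 108 kb away.

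The peaks at ZNF107 and ZNF117 were among the widest of the TASOR2 KO list, ranking 16 and 12 of 264 by width, where the median was 1881.5 bp. The narrow peak past ZNF117 ranked 257. The folds of the 6 TASOR2 KO peaks ran from 3.91 to 4.38 against a list median of 3.92. In the TASOR KO list the fold at ZNF107 lay above the median of 3.35 and that at ZNF273 below it. In the whole TASOR KO list, 138 peaks (32.3%) had a q no higher than 0.05, among them 1 of the 2 at members. The TASOR2 KO list had 79 such peaks (29.9%), among them 4 of the 6 at members. The members were chosen on these peaks, so their shares are not compared with those of the lists.

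At a q of 0.05 or less, ZNF107 was left in TASOR KO (1 of 10, where 0.574% of protein-coding genes had such a peak) and ZNF138, ZNF117 and ZNF92 in TASOR2 KO (3 of 10, against 0.339%). No member then had peaks of both lists, which 0.025% of protein-coding genes did. Of the 499 other ZNF genes, 6.41% had such a TASOR KO peak, 4.41% a TASOR2 KO peak and 0.802% both. The sharing at ZNF107 rests on a TASOR2 KO peak with a q of 0.0529, and that at ZNF273 on 2 peaks with a q above 0.05.

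**Figure D3:**
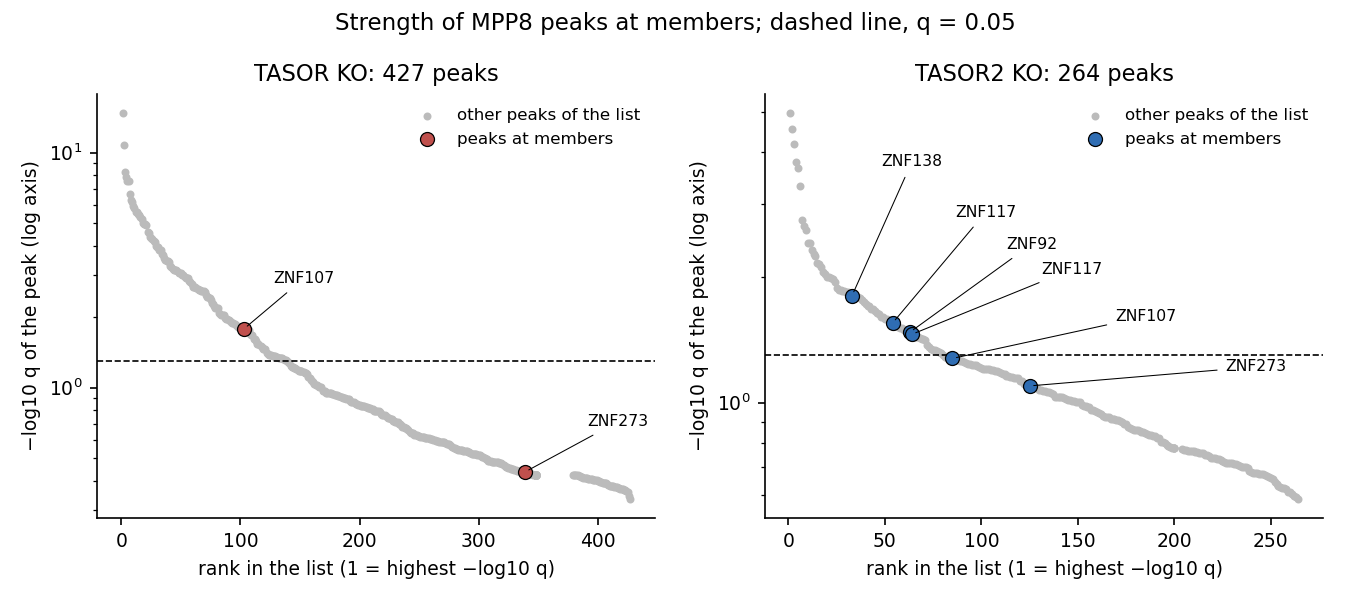
Authors' −log10 q of every peak (log axis) against its rank in the TASOR KO list (left, 427 peaks) and the TASOR2 KO list (right, 264 peaks), with peaks at members coloured and the dashed line at a q of 0.05. Of the peaks at members, ZNF107 in TASOR KO and the peaks at ZNF138, ZNF117 and ZNF92 in TASOR2 KO lie above the line.

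No peak lay within 5 kb of the other 5 members in either list. ZNF727 (gene ID 442319) was 67.4 kb from the nearest TASOR KO peak and 617 kb from the nearest TASOR2 KO peak. ZNF735 (gene ID 730291), the shortest member at 13.1 kb, was 229 kb and 482 kb away. For ZNF679 (gene ID 168417) the distances were 250.4 kb and 436 kb, and for ZNF736 (gene ID 728927) 308 kb and 346 kb. ZNF680 (gene ID 340252) was the nearest of these to the peaks of TASOR2 KO, at 140 kb, and 102 kb from the TASOR KO peak at ZNF107. Against the 5 kb limit of the rule, the outermost peak counted was the one 2.80 kb past ZNF117, and among members with no peak of a list the nearest was the TASOR KO peak 45.8 kb from ZNF117. Both lists are parts of longer numbered ones, so a missing peak does not show that MPP8 was absent.

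The position of the peaks along the genes was not used to choose the members. All 6 TASOR2 KO peaks at members were centred in the later part of the gene or past its end, from 58.7% of the gene length at ZNF138 to 116% at ZNF117, with a median of 87.2%. None covered a promoter window. Of the 2 TASOR KO peaks, the one at ZNF107 was centred 0.650% along the gene and the one at ZNF273 78.0%.

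Most TASOR2 KO peaks of the other ZNF genes also lay late in the gene. There, 80 pairs of a gene and a TASOR2 KO peak with a known strand had a median position of 88.8% (quartiles 78.3 and 96.4), and 69 of the 80 (86.3%) were centred past the middle of the gene. The 74 TASOR KO pairs had a median of 8.87% (quartiles −0.895 and 81.1), and 28 (37.8%) were centred past the middle. A negative position lies before the start. A peak between neighbouring genes counts for each of them, so pairs are not independent.

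A TASOR KO peak covered a promoter window at 36 of the 420 other ZNF genes with a listed start (8.57%, exact binomial 95% interval 6.08 to 11.7) and at 1 of the 10 members, where 0.638% of all 15843 protein-coding genes with a listed start had one. A TASOR2 KO peak covered a promoter window at 0 of these 420 genes (upper bound 0.874%) and at none of the members, where the background was 0.00631%, a single gene. That gene was OPN1SW, which encodes a cone opsin, named after its value was seen. Among the members, ZNF107 alone had a peak over its start, in TASOR KO, and the 5 members with TASOR2 KO peaks had them away from the start. The labels do not say how the authors selected the peaks they deposited, so selection and genotype cannot be told apart.

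**Figure D4:**
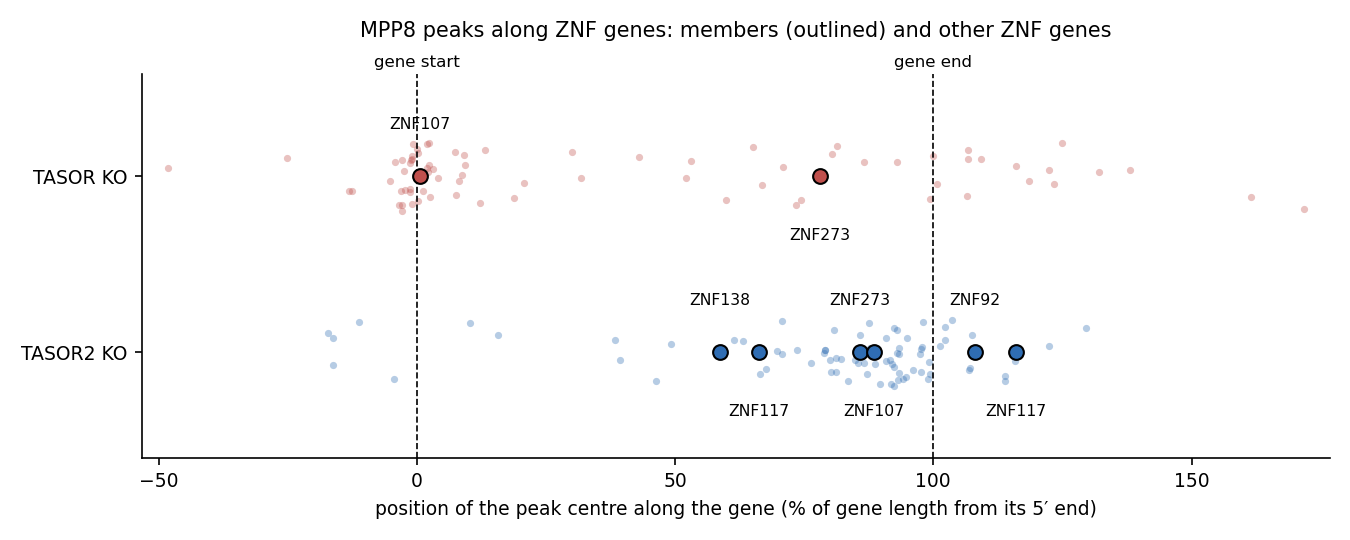
Centre of each MPP8 peak along its ZNF gene, in percent of the gene length from the 5′ end, for the TASOR KO list (red) and the TASOR2 KO list (blue). Outlined points are the members, small points the other ZNF genes with a known strand, and the vertical scatter of small points has no meaning. Many TASOR KO points lie near the gene start, ZNF107 among them, but 28 of the 74 at other ZNF genes and the one at ZNF273 lie past the middle. Most TASOR2 KO points, all 6 at members included, lie past the middle.

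In both members with peaks of both lists the TASOR2 KO peak lay further along the gene, by 39.9 kb between centres at ZNF107 and by 4.68 kb at ZNF273. Of 23 other ZNF genes with peaks of both lists and a known strand, 19 (82.6%) had that order, taking the strongest peak of each list. The smallest gap between peaks of the 2 lists at those 23 genes ranged from 0.694 to 34.2 kb, with a median of 15.2 kb. The members stood at either end of that range: 2 of the 23 genes had a gap as small as that of ZNF273, and none had one as large as that of ZNF107. Several of these genes are neighbours that share peaks.

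**Figure D5:**
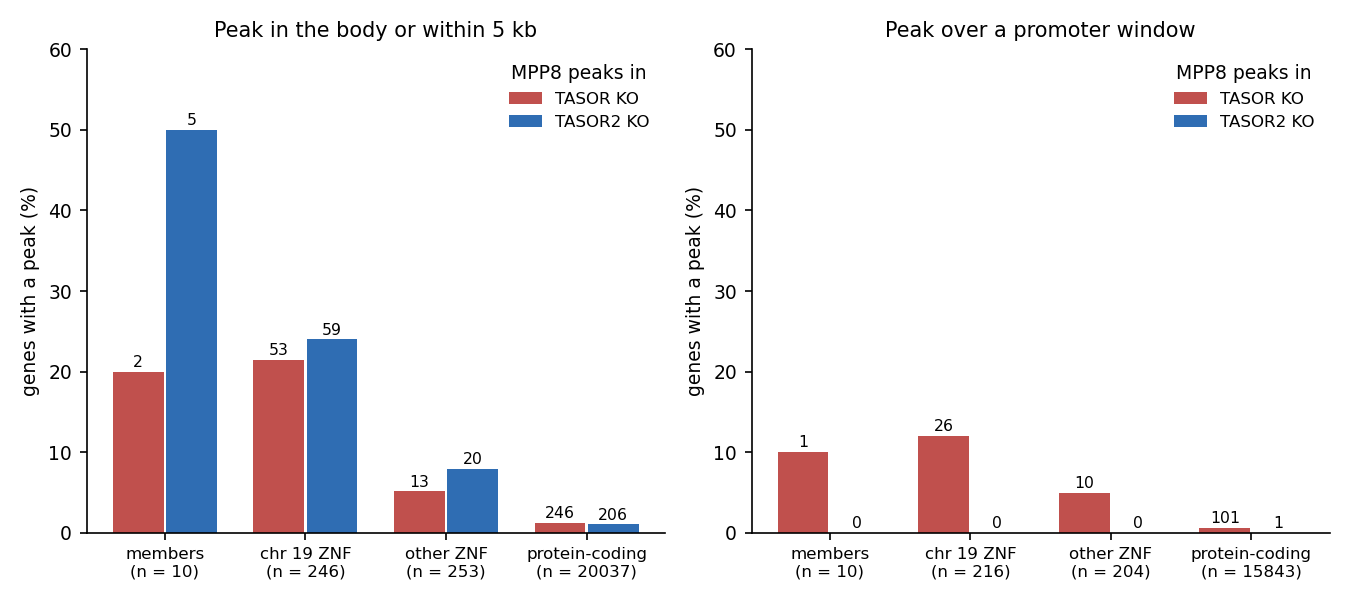
Percent of genes with an MPP8 peak in the body or within 5 kb (left) and with a peak over a listed promoter window (right), for the 10 members, ZNF genes of chromosome 19, ZNF genes of other chromosomes and all protein-coding genes, with the number of genes above each bar. The TASOR KO list (red) covers promoter windows of 1 member and 26 chromosome 19 ZNF genes, and the TASOR2 KO list (blue) covers none of either.

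Between the outer ends of the cluster lie 66 other annotated genes, 43 of them pseudogenes, 17 long noncoding RNAs and 3 protein-coding. Among the 3, ERV3-1-ZNF117 had peaks, and these are the TASOR2 KO peaks of ZNF117. Each list had 1 further peak in the interval. The TASOR KO peak at chr7:65038391-65040011 (q = 0.278, rank 280) overlapped the pseudogenes LOC441241 and CCT6P3 and lay 47.4 kb from ZNF117. It was within 5 kb of the noncoding gene LOC105375330. The TASOR2 KO peak at chr7:65145305-65145954 (q = 0.210, rank 241) lay in the pseudogene INTS4P1. The pseudogenes VN1R42P and VN1R43P were within 5 kb of TASOR2 KO peaks of ZNF273 and ZNF117. Beyond the cluster, the non-zinc-finger genes VKORC1L1, GUSB, ASL, CRCP and TPST1 had no peak within 5 kb, and the nearest peak to any of them was 356 kb away.

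Of all 264 TASOR2 KO peaks, 6 were at members (2.27%), and of all 427 TASOR KO peaks, 2 (0.468%). On chromosome 7 alone the members held 6 of 44 TASOR2 KO peaks (13.6%) and 2 of 90 TASOR KO peaks (2.22%). These shares describe the peaks that chose the members and are not compared. The depth of the libraries is not given in the peak lists and is unknown.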

How the data were processed

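Peak lists of 2 ChIP-seq libraries were used, grouped by their titles. The submitters' processing notes name MACS2, deepTools and Bowtie2 (version 2.3.5.1) and the builds hg38 and mm9. Mouse chromatin was added as a spike-in, per the labels' protocols. No source used here gives its use, the control library or the thresholds. The highest q kept was 0.460 in the TASOR KO list and 0.258 in the TASOR2 KO list, so the thresholds may differ. The deposited lists have no header and follow the column order of MACS2 broad peaks, from which the deposited score, fold enrichment (a ratio), −log10 p and −log10 q were read. Each list names 1 library, but whether other libraries were used in calling or selecting its peaks is not given. Peak numbers have gaps, so each list is part of a longer one.

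Peak starts were converted to 1-based positions. Overlap meant 1 bp or more. Genes came from a RefSeq table and starts, strands and promoter windows from a RefSeq promoter table (GRCh38.p14), and exons were not used here. The planned protein features and peak sequences were not analysed here. Positions run from the outermost 5′ end of the gene. Windows were aligned globally with Biopython 1.88 (match 1, mismatch −1, gap opening −2, gap extension −0.5). Intervals are exact (Clopper-Pearson) at 95%. No p-value was computed. The counting step was tested on simulated data with planted peaks. Members, lists and motifs were chosen with earlier results of these data known. All 10 members were named, and other genes of the interval where a peak lay within 5 kb. Alternatives were windows of 0, 1 and 10 kb, a q of 0.05 or less, a common q threshold of 0.258 and equal numbers of peaks (264). Tools were scipy 1.17.1, pandas 2.3.3, numpy 2.4.6 and matplotlib 3.10.9 under Python 3.11.15.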

Additional observations from a re-analysis of the deposited data

How the results depend on the processing

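Of 30 alternative values over 5 counts, 4 could not move, since the common q threshold and the equal number of peaks leave the TASOR2 KO list whole. Of the other 26, 16 stayed within 1.5 times the value reported and 10 did not. Windows of 0, 1 and 10 kb changed no count beyond that limit. With the gene body alone, ZNF92 was lost and TASOR2 KO kept 4 members. Its peaks at members fell from 6 to 4, which is at the limit itself, and to 5 with the 1 kb window. At a q of 0.05 or less, members with a peak fell to 1 in TASOR KO, 3 in TASOR2 KO and 0 in both lists, and peaks at members in TASOR KO to 1. At the common q threshold of 0.258, and likewise with 264 peaks per list, TASOR KO had 1 member with 1 peak and 1 member had peaks of both lists. The TASOR KO peak at ZNF273 is the one lost in each of these settings. Shares over all protein-coding genes were not computed for the common q threshold or for equal numbers of peaks. No paired analysis was possible because there was a single library of each genotype, which also prevented leaving one out. The weakest peaks kept had a q of 0.460 in the TASOR KO list and 0.258 in the TASOR2 KO list. Depth is unknown, so it cannot be said how weakly bound a site could be and still give a peak.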
